A study of Mus musculus with 12 samples.

Results

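The miR-99, miR-100 and miR-125 microRNAs (miRNAs) were followed in small RNA from the prefrontal cortex (PFC) of mice. The members were the 5 rows of the count files typed as mature miRNA and named mmu-miR-99a-5p, mmu-miR-99b-5p, mmu-miR-100-5p, mmu-miR-125a-5p and mmu-miR-125b-5p, out of 1422 mature and predicted miRNAs with a count. All 5 passed the filter on low counts, which kept 780 miRNAs. The 12 libraries came from adult male C57BL/6 mice that all went through conditioned place preference (CPP), a test of how far an animal comes to prefer the place where it received a drug. SS mice received saline alone, CS mice cocaine and saline, MS mice L-methionine (MET) and saline, and MC mice MET and cocaine, with 3 libraries a group. By the sample labels MET was injected under the skin at 1 g/kg, 2 times a day over 10 consecutive days, a dose that differs from the one in a figure legend of the study, and the labels give no dose of cocaine. The medial PFC was taken 2 hours after the test, RNA of 18 to 30 nt was cut from a gel, and each library was made from RNA pooled from a pair of animals, so differences between single animals cannot be seen. The tissue was bulk, so that fewer cells of a type and less of a miRNA per cell cannot be told apart.

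A mature miRNA guides an Argonaute protein to messenger RNAs that pair with its seed, the bases near its 5′ end, and so lowers their translation and stability. miR-100 belongs to the oldest known miRNA families of animals, and miR-125 is the vertebrate form of lin-4, the founding miRNA of worms. In vertebrates their genes sit in clusters with a let-7 gene between them, and miR-99/100 are known to repress Mtor while let-7 and miR-125 act in the timing of development and are abundant in brain.

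The mature sequences are shown because they separate the members into 2 seed groups and tell how far one member can be told from the next in a read. They are from RefSeq (GRCm38.p6), 5′ to 3′, with the seed (bases 2 to 8) in capitals. The miR-10 family relative miR-10a-5p stands last for comparison.
miR-99a-5p: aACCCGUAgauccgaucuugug
miR-99b-5p: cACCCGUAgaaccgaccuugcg
miR-100-5p: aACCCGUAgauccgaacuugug
miR-125a-5p: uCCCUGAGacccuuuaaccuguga
miR-125b-5p: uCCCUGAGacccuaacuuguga
miR-10a-5p: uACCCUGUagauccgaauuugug
miR-99a, miR-99b and miR-100 shared the seed ACCCGUA, and miR-125a and miR-125b shared CCCUGAG. Counted from the 5′ end, miR-99a and miR-100 differed by the substitution U16A alone, so a read with 1 error at that base can move between them. miR-99a and miR-99b differed by A1C, U11A, U16C and U21C. miR-125a (24 nt) and miR-125b (22 nt) were identical over the first 13 bases. Among all miRNAs with a count and a RefSeq sequence, 1 other carried a member's seed, miR-351-5p, with the seed of miR-125, and its level was 2.08 to 7.78 CPM (counts per 1000000 counts of the library).

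The members come from 3 clusters, all on the + strand of GRCm38, each with a let-7 hairpin between a miR-99/100 and a miR-125 hairpin. Mir100, Mirlet7a-2 and Mir125b-1 span chr9:41531437-41582001, in introns of the non-coding genes 3110039I08Rik and Gm49317, with Mir125b-1 also in an exon of Gm28119. Mir99a, Mirlet7c-1 and Mir125b-2 span chr16:77598940-77646339, in introns of the host transcript Mir99ahg. Mir99b, Mirlet7e and Mir125a lie within 683 bases at chr17:17830194-17830876 in Spaca6, where the first and second are intronic and Mir125a overlaps an exon of a transcript (GENCODE M21). Mature miR-125b-5p is the same from both of its loci, chr9:41581940-41581961 and chr16:77646279-77646300, so its count is their sum.

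Total counts per library, in units of 1000000 counts, were 7.77 to 11.1. The brain markers miR-124-3p, miR-9-5p, miR-128-3p, miR-138-5p and miR-219a-5p were present in every library, with a summed level of 102709 to 269861 CPM. Their muscle counterparts (miR-1a-3p, miR-133a-3p and miR-206-3p) summed to 27.0 to 87.4 CPM. MC replicate 16 stood apart from the other 11 libraries. Over 176 miRNAs with a mean of at least 100 CPM, its median absolute log2 deviation from the median library was 1.11, against 0.139 to 0.313 in the others, and 16.1% of its counts were typed as exon, against 7.40% to 10.9%. The members' fitted values that leaving it out moved by over 1.5 times are given both ways in the comparisons with MC.

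miR-99a-5p was by far the most abundant member. Its mean over the 12 libraries was 25306 CPM, rank 5 among all miRNAs, followed by miR-100-5p at 5514 CPM, miR-99b-5p at 5383 CPM, miR-125b-5p at 2963 CPM and miR-125a-5p at 1840 CPM. Together the members took 35225 to 49730.1 CPM in 11 libraries and 19621 CPM in MC replicate 16. These levels compare counted molecules of nearly the same length, and how well each sequence was captured by the library preparation was not measured. The order was largely fixed. miR-99a-5p exceeded each of the others in 12 of 12 libraries and miR-125b-5p exceeded miR-125a-5p in 12 of 12, by 1.16- to 2.35-fold. miR-99b-5p and miR-100-5p were not ordered: miR-99b-5p was the higher in 5 of 12 libraries, with a ratio of 0.698 to 1.49. miR-100-5p exceeded both miR-125 members in 11 of 12 libraries, the exception being MC replicate 16.

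miR-99a-5p measured 25229, 25543 and 31575 CPM in SS, 30270.0, 25773 and 21871 CPM in CS, 27143, 28588 and 22464 CPM in MS, and 8939, 28323 and 27958 CPM in MC. The groups overlapped, and without MC replicate 16 the 11 libraries stayed within 1.44-fold of each other. miR-99b-5p measured 6548, 5651 and 5488 CPM in SS, 6413, 4980.0 and 5268 CPM in CS, 4485, 5568 and 4425 CPM in MS, and 3339, 5696 and 6737 CPM in MC. Its MS libraries were mostly low, with 1 of 3 above the lowest SS library. miR-100-5p measured 7021, 4942 and 5944 CPM in SS, 7718, 7131 and 4247 CPM in CS, 5505, 6223 and 4656 CPM in MS, and 2237, 5248 and 5290.1 CPM in MC. The CS libraries held both the highest and the lowest level of the 11 libraries other than MC replicate 16, 1.82-fold apart.

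miR-125a-5p measured 1352, 1005 and 1621 CPM in SS, 2370.3, 1604 and 1387 CPM in CS, 1784, 2381 and 1630.4 CPM in MS, and 2356, 2475 and 2115 CPM in MC. All 3 MS libraries exceeded all 3 SS libraries and the MC libraries were tightly grouped. Of the 780 miRNAs tested, 18.7% lay higher in MS than in SS without overlap on the same CPM scale, so that count of 1 member in 5 is near the background. No member lay lower in MS than in SS without overlap (4.1% of the 780 did), and none separated the groups of the other comparisons. There 12.3% of miRNAs lay higher and 0.897% lower in CS than in SS, 2.95% and 2.05% in MC than in CS, and 5.64% and 2.69% in MC than in MS. miR-125b-5p measured 1572, 2363 and 2939 CPM in SS, 2959, 2421 and 2453 CPM in CS, 2877, 4782 and 3311 CPM in MS, and 2752, 4121 and 3003 CPM in MC. MS reached the highest level of the series, in replicate 4, and its lowest library overlapped SS.

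**Figure D1:**
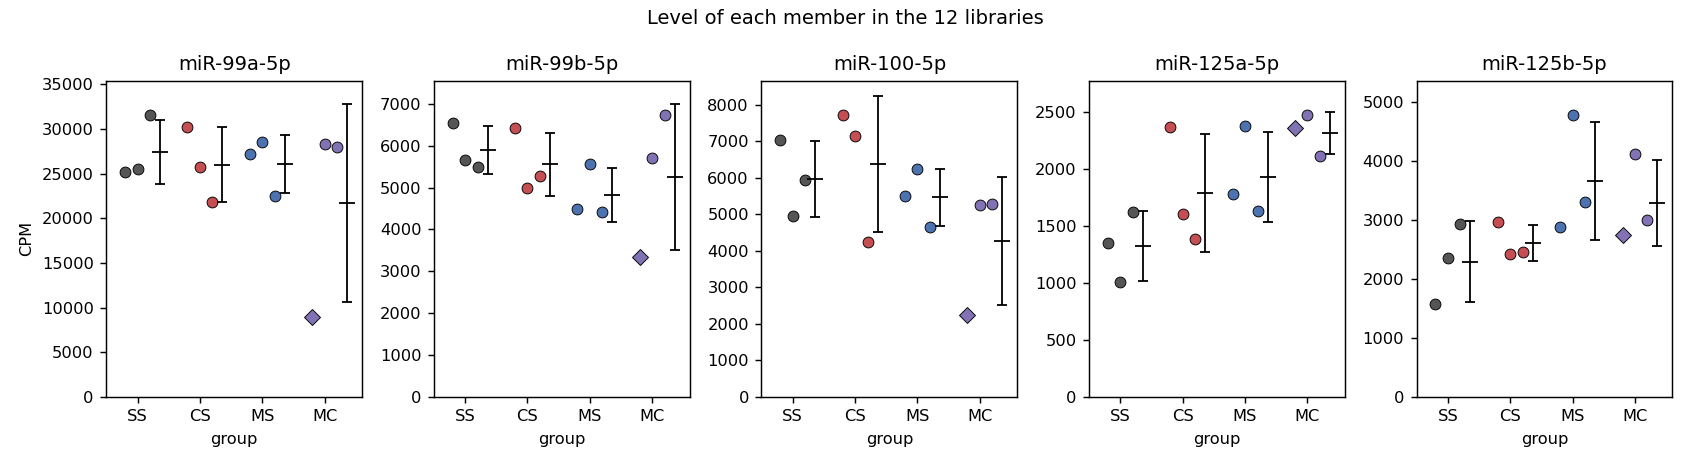
Level of each member in CPM (y axes, from 0) in the SS, CS, MS and MC groups (x axes). Points are libraries, the diamond is MC replicate 16, and the bar beside each group is the mean ± SD (n = 3). miR-99a-5p, miR-99b-5p and miR-100-5p fall to 8939, 3339 and 2237 CPM in that library, while miR-125a-5p and miR-125b-5p stay within the range of the others.

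Whether cocaine alone altered the family was asked by comparing CS with SS. No member was called by edgeR's quasi-likelihood test (Benjamini-Hochberg adjusted p of at most 0.05), nor was any of the 780 miRNAs (0%, with 22 or 2.82% at an unadjusted p under 0.05). DESeq2 also called 0. miR-99b-5p had the largest fitted log2 fold change, -0.35 (SE 0.17, 95% confidence interval -0.73 to 0.028, adjusted p = 0.994 by edgeR), and miR-99a-5p was close to it at -0.35 (SE 0.22). miR-100-5p was at -0.19, miR-125a-5p at 0.16 and miR-125b-5p at -0.070. Single libraries moved these last 3 by over 1.5 times: miR-100-5p ran from -0.35 (without CS replicate 9) to -0.066 (without SS replicate 12), miR-125a-5p was 0.0058 without SS replicate 13 and 0.044 without CS replicate 8, and miR-125b-5p ran from -0.29 (without SS replicate 12) to 0.048 (without SS replicate 14). These values also depend on scaling. With total counts and no TMM factors the median of all tested miRNAs moved by 0.27, and miR-100-5p turned to 0.093 and miR-125b-5p to 0.19. The 95% confidence intervals of all 5 members stayed within 2-fold either way, from -0.83 (miR-99a-5p) to 0.73 (miR-125a-5p).

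MET alone was examined by comparing MS with SS, and the members divided by seed. The fitted log2 fold changes were -0.32 for miR-99a-5p, -0.54 for miR-99b-5p and -0.38 for miR-100-5p, against 0.30 for miR-125a-5p and 0.42 for miR-125b-5p, where the median of all tested miRNAs was -0.032. None of the 5 was called by edgeR, with 0 of 780 miRNAs called (0%) and 75 (9.62%) at an unadjusted p under 0.05. miR-99b-5p came nearest, with SE 0.17, a 95% confidence interval of -0.93 to -0.16 and adjusted p = 0.315 by edgeR. DESeq2 gave it -0.57 with an adjusted p of 0.0068 and called it, as it did 19 of the 531 miRNAs to which it gave an adjusted p (3.58%). These signs held in every alternative run, but their size leaned on single libraries. Without SS replicate 12 miR-100-5p was -0.24 and miR-125b-5p 0.21, without MS replicate 4 miR-125b-5p was 0.28, and without SS replicate 13 miR-125a-5p was 0.16. With total counts and no TMM factors the median of all tested miRNAs moved by 0.25, and the members stood at -0.075, -0.29 and -0.13 for miR-99a-5p, miR-99b-5p and miR-100-5p and at 0.54 and 0.68 for miR-125a-5p and miR-125b-5p. All 3 MS libraries and 2 of 3 SS libraries belong to a set of libraries alike in their precursor family rows. Within that set miR-99b-5p measured 4425 to 5568 CPM in MS and 5488 to 5651 CPM in SS. miR-125a-5p was at 1630.4 to 2381 and 1005 to 1621 CPM, and miR-125b-5p at 2877 to 4782 and 2363 to 2939 CPM. miR-99a-5p overlapped at 22464 to 28588 and 25543 to 31575 CPM. miR-100-5p was not lower in MS there, at 4656 to 6223 (mean 5462) against 4942 to 5944 CPM (mean 5443). The division by seed was thus not seen for miR-100-5p in CPM within that set.

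**Figure D2:**
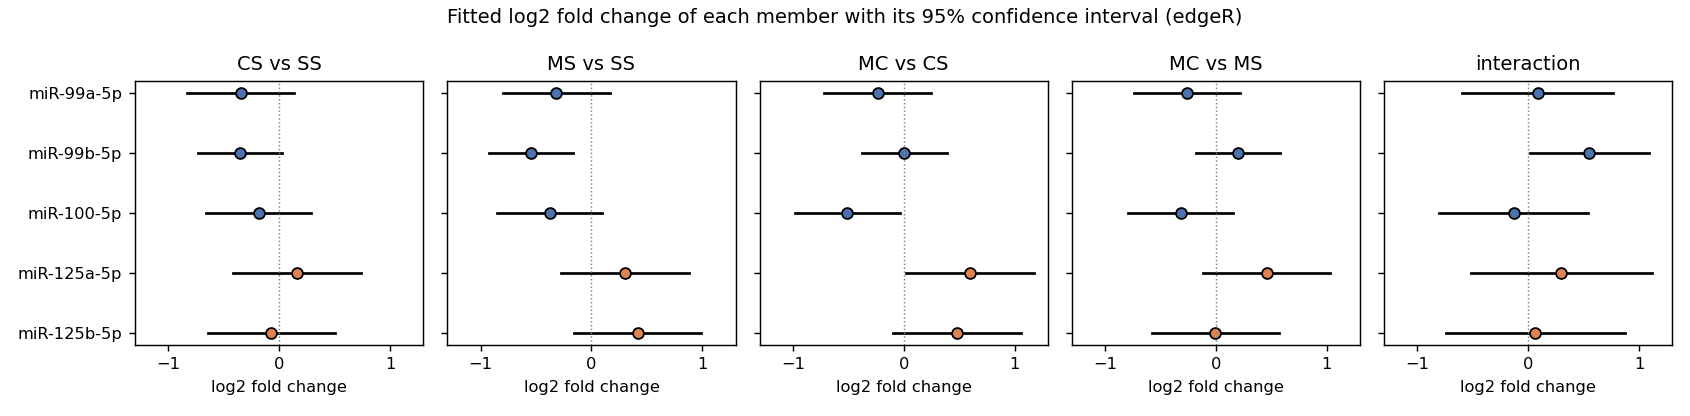
Fitted log2 fold change (x axes) of the 5 members (rows) in the 4 comparisons of groups and in the interaction of cocaine and MET, by edgeR. Points are estimates, blue for miR-99/100 and orange for miR-125 members, and lines are 95% confidence intervals. In MS vs SS the miR-99/100 members lie at -0.32, -0.54 and -0.38 and the miR-125 members at 0.30 and 0.42, and no member was called.

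The effect of MET on cocaine-treated mice was addressed by comparing MC with CS. miR-100-5p had a fitted log2 fold change of -0.51 (SE 0.22, adjusted p = 0.577 by edgeR) and miR-125a-5p one of 0.60 (SE 0.26, adjusted p = 0.577 by edgeR). Neither was called, nor were miR-99a-5p (-0.23), miR-99b-5p (0.0068) and miR-125b-5p (0.48). Of 780 miRNAs 0 were called by edgeR (0%) and 0 by DESeq2, with 58 (7.44%) at an unadjusted p under 0.05 by edgeR. Without MC replicate 16 the values were -0.35 for miR-100-5p, 0.29 for miR-125a-5p, 0.35 for miR-125b-5p, 0.064 for miR-99b-5p and 0.025 for miR-99a-5p. Leaving out that library thus moved the values of miR-125a-5p and miR-99b-5p by over 1.5 times and turned the sign of miR-99a-5p.

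Cocaine in MET-treated mice was examined as MC against MS. The largest fitted log2 fold change was that of miR-125a-5p, 0.46 (SE 0.26, adjusted p = 0.623 by edgeR), which was 0.12 without MC replicate 16. miR-99a-5p was at -0.26, miR-99b-5p at 0.20, miR-100-5p at -0.32 and miR-125b-5p at -0.0055. Without that library miR-99a-5p was -0.032, miR-100-5p -0.19 and miR-125b-5p -0.16, and miR-99b-5p was 0.13 without MC replicate 20. edgeR and DESeq2 called 0 of the 780 miRNAs here (0%), and 65 (8.33%) had an unadjusted p under 0.05 by edgeR.

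The interaction, the effect of cocaine under MET minus that under saline, asked whether the 2 treatments act on each other. It was 0.55 for miR-99b-5p (SE 0.25, 95% confidence interval 0.013 to 1.09, adjusted p = 0.804 by edgeR) and between -0.13 and 0.30 for the other members. Without MC replicate 16 it was 0.53 for miR-99b-5p, 0.26 for miR-99a-5p, -0.048 for miR-100-5p, -0.084 for miR-125a-5p and -0.15 for miR-125b-5p. None was called, as for all 780 miRNAs (0% by edgeR and 0 by DESeq2, with 34 or 4.36% at an unadjusted p under 0.05 by edgeR). In the test for any difference among the 4 groups, edgeR called 0 of 780 (0%, with 59 or 7.56% at an unadjusted p under 0.05), and miR-100-5p had the smallest p of the members, with an adjusted p of 0.593 by edgeR. DESeq2 called 12 of 652 (1.84%), with miR-99b-5p at an adjusted p of 0.0493. All these comparisons reuse groups of 3 libraries, so their values are not independent of each other.

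Ratios between members of the same library need no scaling between libraries. The summed miR-99/100 members exceeded the summed miR-125 members by a log2 ratio of 3.73, 3.42 and 3.24 in SS, 3.06, 3.23 and 3.03 in CS, 2.99, 2.49 and 2.67 in MS and 1.51, 2.57 and 2.97 in MC. The SS libraries were the highest of the series, but the lowest of them (3.238, replicate 14) nearly equalled the highest CS library (3.235, replicate 9). MS and MC lay below SS in every library. How often ratios of such sums separate the groups was not counted over other miRNAs. For the pair from the chromosome 17 cluster, miR-99b-5p to miR-125a-5p, the log2 ratio was 2.28, 2.49 and 1.76 in SS, 1.44, 1.63 and 1.92 in CS, 1.33, 1.23 and 1.44 in MS and 0.50, 1.20 and 1.67 in MC. MS was below SS without overlap, with a mean difference of -0.84, and CS overlapped SS. For miR-99a-5p to miR-125b-5p it was 4.00, 3.43 and 3.43 in SS, 3.35, 3.41 and 3.16 in CS, 3.24, 2.58 and 2.76 in MS and 1.70, 2.78 and 3.22 in MC, again with MS below SS in every library (mean difference -0.76).

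Counted over the 10 pairs of members, the log2 ratio separated MS from SS without overlap in 6 pairs, and these were all 6 pairs of a miR-99/100 with a miR-125 member. Among all 15400 pairs of the 176 abundant miRNAs, 32.9% did so, in either direction. Pairs without overlap numbered 2 of 10 between CS and SS (background 12.0%), 1 of 10 between MC and CS (8.31%) and 3 of 10 between MC and MS (7.73%). Pairs that share a member are not independent of each other, and no test was made of these counts.

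**Figure D3:**
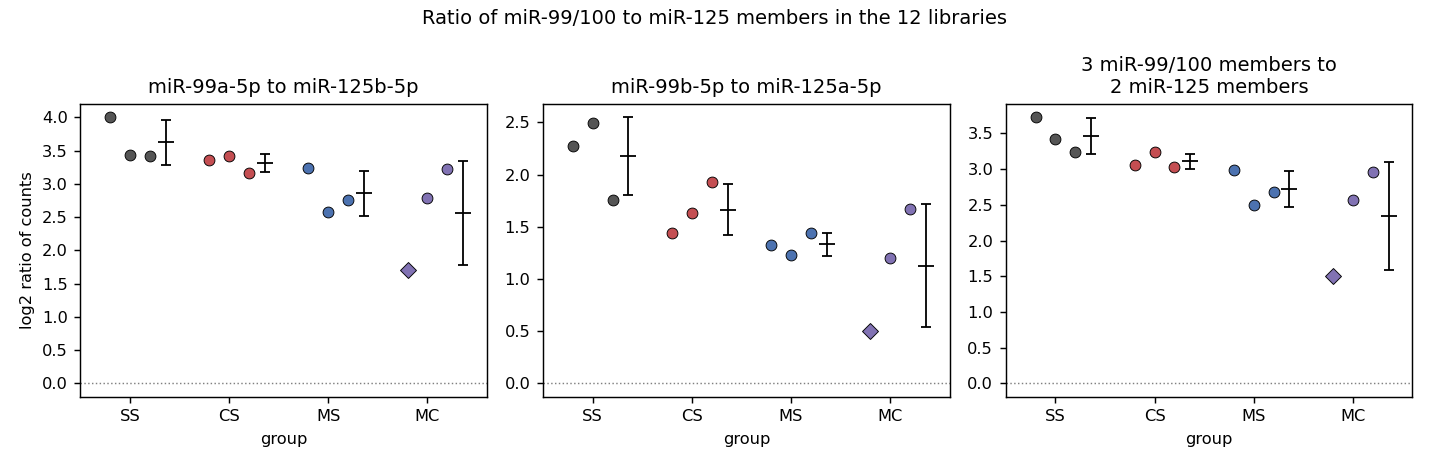
Log2 ratio of counts (y axes) of miR-99a-5p to miR-125b-5p, of miR-99b-5p to miR-125a-5p and of the 3 summed miR-99/100 members to the 2 summed miR-125 members, by group (x axes). Points are libraries, the diamond is MC replicate 16, and bars are the mean ± SD (n = 3). All MS libraries lie below all SS libraries in each panel, and MC replicate 16 is the lowest point.

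The summed level of the neuron markers (miR-124-3p, miR-138-5p, miR-128-3p and miR-218-5p, all 4 present) split the libraries the way miR-125a-5p did. It was 87255 to 92167 CPM in 5 libraries, CS replicate 8, MS replicate 4 and the 3 MC libraries, and 126922 to 225603 CPM in the other 7. In those 5 libraries miR-125a-5p was 2115 to 2475 CPM, and in the other 7 it was 1005 to 1784 CPM, without overlap. The share of all tested miRNAs that separate these libraries was not counted, so whether miR-125a-5p is unusual in this cannot be told. The neuronal miR-124-3p alone was at 30002 to 46349 and 70274 to 176336 CPM, and it carried the split: the other 3 markers summed to 43300 to 62165 and 43991 to 56648 CPM, with miR-138-5p at 21923 to 27770 CPM in the 5 libraries, above its 16467 to 20373 CPM in the 7. miR-125b-5p overlapped between the same libraries, at 2752 to 4782 and 1572 to 3311 CPM, as did miR-99a-5p, miR-99b-5p and miR-100-5p. All 3 MC libraries, 1 of 3 CS libraries, 1 of 3 MS libraries and no SS library fall in the low set. The values of miR-125a-5p in CS vs SS, MS vs SS, MC vs CS and MC vs MS therefore stand beside that split, whose part in them was not tested.

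In MC replicate 16 miR-99a-5p was 3.04-fold, miR-100-5p 2.46-fold and miR-99b-5p 1.67-fold below the median of the other 11 libraries, each under the lowest of them. Of the 176 abundant miRNAs, 99 (56.25%) were lowest there too, so that count of members is near the background. miR-125a-5p (2356 CPM) and miR-125b-5p (2752 CPM) stayed within the range of the others. Their let-7 neighbours lay on the other side: let-7c-5p was at 116002 CPM against 25373 to 44733, let-7e-5p at 9815 CPM against 2660 to 4640.5 and let-7a-5p at 21507 CPM against 12403 to 18454. Of all 8 let-7 5p miRNAs among the abundant ones, 5 were above all other libraries there, let-7b-5p and let-7d-5p beside these 3, and 3 were below, let-7f-5p, let-7g-5p and let-7i-5p. Since let-7a-5p and let-7c-5p also come from loci outside the 3 clusters, their levels are not those of a cluster alone.

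The other arms of the hairpins were scarce, at a mean of 5.36 CPM (miR-125a-3p, 26 to 81 counts) to 61.5 CPM (miR-99b-3p, 308 to 831 counts). Outside MC replicate 16, the 5p arm exceeded the 3p arm 446- to 1021-fold for miR-99a and 82.3- to 147-fold for miR-99b. In MC replicate 16 the arms of some hairpins moved together and those of others did not. miR-99a-3p and miR-100-3p were below all other libraries, as their 5p arms were, and the ratios of the arms were 606 and 610. miR-99b-3p was at 107 CPM against 38.6 to 70.9 in the others while miR-99b-5p was low, which brought the ratio of its arms to 31.2. The arms made from the paired miR-125b hairpins also parted, with miR-125b-1-3p at 53.4 CPM (12.5 to 37.8 elsewhere) and miR-125b-2-3p at 13.9 CPM (17.3 to 36.1 elsewhere). miR-125a-3p was above all others while miR-125a-5p was within their range.

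Such departures were general in that library. Of the 176 abundant miRNAs 99 were lowest and 32 highest there, or 74.4% at an extreme, against 5.68% to 27.8% in the other libraries. Base composition moved with them: median GC content was 44.2% for the 86 lowest miRNAs with a sequence, 50.0% for the 38 within the range and 55.8% for the 26 highest. miR-99a-5p and miR-100-5p were 50.0% GC and miR-99b-5p 63.6%, each above the median of the lowest miRNAs. The let-7 partners, which were highest there, were 40.9% (let-7c-5p and let-7e-5p) and 36.4% GC (let-7a-5p), each below the median of the highest miRNAs. The red blood cell markers summed to 387 CPM in that library against 1496 to 3972 elsewhere, and those of endothelium and vessel wall to 3787 against 9742 to 14317. Within these lists, miR-486a-5p (2.57 CPM, 1.40 to 49.9 over the series) and miR-145a-5p (39.4 CPM, 22.4 to 67.9) were not at an extreme. The choroid plexus and brain lists were also lowest in that library, at 681 and 102709 CPM. Not lowest within them were miR-124-3p (46349 CPM, 30002 to 176336 over the series), miR-138-5p (24945 CPM, 16467 to 27770) and the nearly absent miR-448-3p (0.129 CPM, 0 to 1.09). The part of these lists in the levels of the family was not tested.

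**Figure D4:**
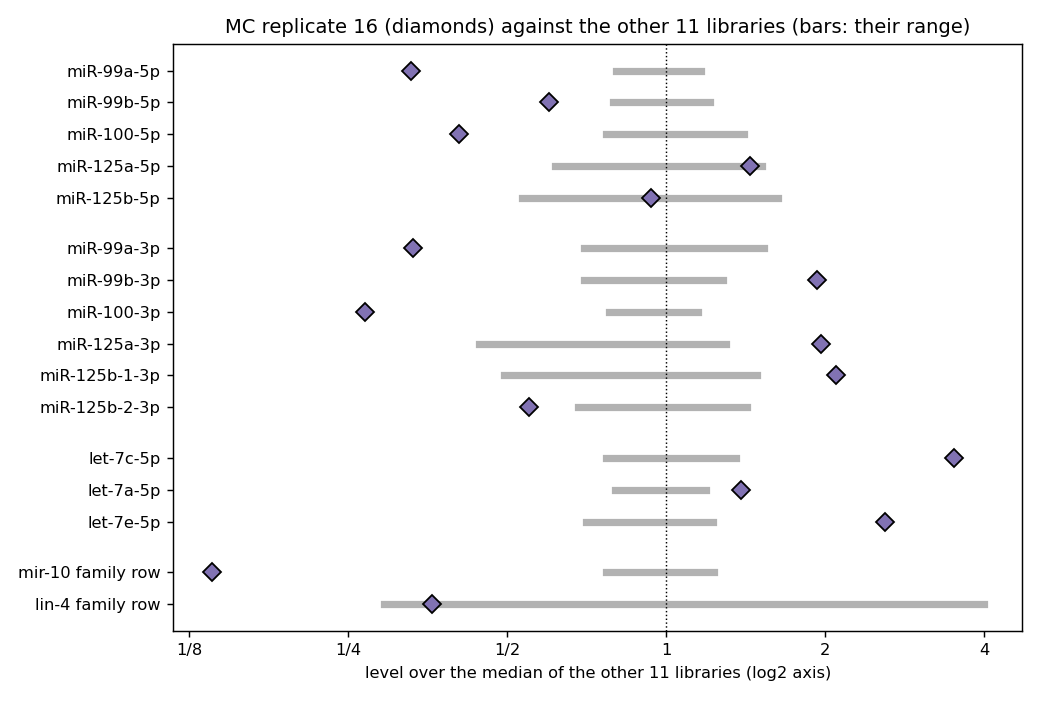
Level in MC replicate 16 (diamonds) of the members, the other arms of their hairpins, their let-7 partners and the mir-10 and lin-4 precursor family rows, over the median of the other 11 libraries (x axis, log2 scale). Grey bars span the other 11 libraries. miR-99a-5p, miR-99b-5p and miR-100-5p lie left of the bars, miR-125a-5p and miR-125b-5p on them and the 3 let-7 partners right of them.

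By the SD of the log2 ratio over 12 libraries, a measure of how closely 2 levels run in parallel, the nearest of 175 abundant miRNAs to miR-99a-5p was miR-27b-3p (SD 0.0888), followed by miR-7a-1-3p (0.135). miR-27b-3p measured 1081 CPM in MC replicate 16 and 2458 to 3857 CPM elsewhere. The nearest to miR-99b-5p were let-7g-5p (0.190) and let-7f-5p (0.205), and those to miR-100-5p were miR-497a-5p (0.213) and miR-872-3p (0.216), with miR-99a-5p next (0.223). miR-125a-5p ran closest to miR-181d-5p (0.142) and miR-181b-5p (0.236), and miR-125b-5p to miR-129-2-3p (0.184) and miR-181d-5p (0.259). Members of the same cluster were no closer. The SD was 0.58 for miR-99a-5p and miR-125b-5p, 0.52 for miR-99b-5p and miR-125a-5p and 0.64 for miR-100-5p and miR-125b-5p. These ranked 104, 93 and 113 of 175 from the side of the miR-99/100 member. To the let-7 partner the SD was 1.01 for miR-99a-5p (let-7c-5p), 0.65 for miR-99b-5p (let-7e-5p) and 0.60 for miR-100-5p (let-7a-5p). Without MC replicate 16 miR-27b-3p (SD 0.0929) and miR-129-2-3p (0.158) stayed the nearest to their members, while the nearest to miR-99b-5p, miR-100-5p and miR-125a-5p went to rank 7, 8 and 3. miR-99a-5p and miR-125b-5p were then at 0.40 (rank 113), miR-99b-5p and miR-125a-5p at 0.42 (rank 108) and miR-100-5p and miR-125b-5p at 0.54 (rank 134). The let-7 partners came much closer without that library, at 0.24 for miR-99a-5p, 0.20 for miR-99b-5p and 0.29 for miR-100-5p. For miR-99b-5p let-7g-5p and let-7f-5p were then at 0.19 and 0.21, so let-7e-5p ran about as close as they did.

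Of the 26 miRNAs named by rule (the 6 other arms, the let-7 partners with their arms, miR-351-5p, miR-10a-5p, miR-10b-5p and the nearest miRNAs above), edgeR called 0 in each comparison, where the smallest adjusted p was 0.353 (miR-125b-2-3p, MS vs SS, edgeR). That arm, the passenger of the chromosome 16 hairpin, measured 17.3, 19.2 and 21.6 CPM in SS and 35.5, 36.1 and 34.7 CPM in MS. The MS libraries were higher without overlap, and the fitted log2 fold change was 0.63 (SE 0.22). The same arm was higher in CS (23.8 to 25.7 CPM) than in SS without overlap, as were 12.3% of tested miRNAs. It was lower in MC (13.9 to 27.2 CPM) than in MS without overlap, as were 2.69%. The fitted log2 fold change in MC vs MS was -0.62 (SE 0.22, adjusted p = 0.561 by edgeR). miR-125b-1-3p, from the chromosome 9 hairpin, was higher in MS without overlap as well, at 26.4, 29.3 and 37.8 CPM against 21.6, 12.5 and 14.6 CPM in SS, with a fitted log2 fold change of 0.71 (SE 0.46, adjusted p = 0.685 by edgeR). As given above, 18.7% of all tested miRNAs did the same in CPM. miR-10a-5p and miR-10b-5p, whose seed is ACCCUGU, were scarce at means of 29.0 and 6.68 CPM. The former mean was carried by MC replicate 20 at 159 CPM, against 5.54 to 37.4 CPM in the others, and was 17.2 CPM without it.

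The files also hold rows for precursor families, which count reads given to a family rather than to a mature miRNA. Which hairpins each covers is not stated in the sources used here. The lin-4 family row, the family of miR-125, measured 229, 783 and 1714 CPM in SS, 373, 290 and 302 CPM in CS, 2032, 3129 and 2094 CPM in MS and 282, 469 and 2204 CPM in MC. It ran with the set a library belongs to. Over the precursor family rows the libraries fell into 3 sets that the labels do not name. The lin-4, mir-10 and let-7 rows were left out when these sets were formed. Since the sets come from rows of the same kind, a further such row may follow them for that reason alone. How many rows do so was not counted. The lin-4 row was 783 to 3129 CPM in SS replicates 13 and 14, the MS libraries and MC replicate 20. It was 229 to 469 CPM in the other 6 libraries. miR-125a-5p plus miR-125b-5p did not divide so, at 3368 to 7163 CPM in the former and 2924 to 6596 CPM in the latter. MS exceeded SS in the lin-4 row also within the former set, at 2032 to 3129 against 783 to 1714 CPM, and the fitted log2 fold change over all libraries was 1.01 (SE 0.84, adjusted p = 0.823 by edgeR over these rows, 0% of which were called). Adding the row to the miR-125 members gave 3153 to 6273 CPM in SS and 6694 to 10292 CPM in MS, still without overlap. The sum of the members alone did not overlap either (2924 to 4559 and 4662 to 7163 CPM). Of single tested miRNAs, 18.7% lay higher in MS than in SS without overlap. That share was not counted over family rows or sums, so whether these separations are unusual cannot be told. The mir-10 family row, the family of miR-99/100, was 105 CPM in MC replicate 16 and 586 to 939 CPM elsewhere, and no comparison of it was called by edgeR.

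**Figure D5:**
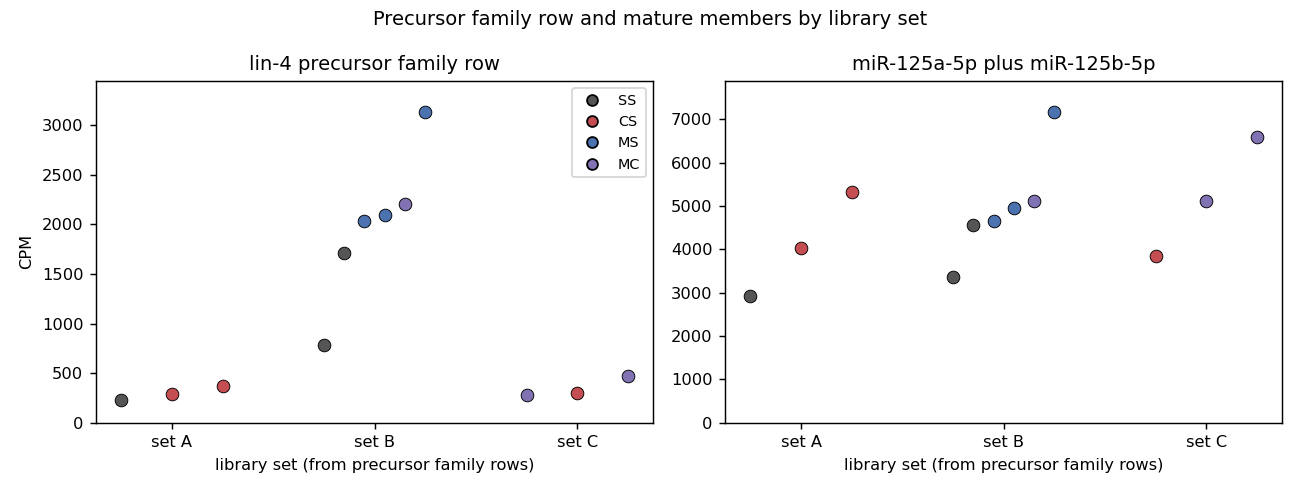
Level in CPM (y axes, from 0) of the lin-4 precursor family row and of miR-125a-5p plus miR-125b-5p, with libraries (points, coloured by group) placed by library set (x axes). The family row reaches 783 to 3129 CPM in the 6 libraries of set B and at most 469 CPM in the other 6, while the mature members overlap between the sets. The sets were formed from other precursor family rows, so a further row of that kind may follow them.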

How the data were processed

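Small RNA was sequenced on the BGISEQ-500 platform in 50 base reads, in 12 libraries with 3 per group. Per the study's methods, the authors filtered reads for quality, adapters and length and mapped the rest with AASRA, and Bowtie is named with mm10 in the submitters' processing notes. How reads were assigned to miRNAs is not given in the sources used here. The deposited count is a number of reads per small RNA, not normalized. The TPM values deposited by the authors beside the counts are counts per 1000000 counts of the library, and equalled the CPM computed here within 0.005. The counts of all 12 libraries summed to the stated totals (7.77 to 11.1 in units of 1000000 counts), and no 2 libraries agreed within sampling noise (smallest chi-square per degree of freedom 131 over 66 pairs).

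The counts of the 780 mature and predicted miRNAs that reached 5 counts in 3 or more libraries entered a quasi-likelihood F-test (edgeR 4.0.16, R 4.3.3), with the total count as library size, TMM factors, and all 12 libraries in 1 fit of 4 group means, and Benjamini-Hochberg adjustment over all of them. Calls needed an adjusted p no larger than 0.05. Ratios used counts plus 0.5. DESeq2 1.42.0 was an alternative, in which an adjusted p it did not give was left out. The other alternatives were other scalings and filters, a fit over 6 libraries, library set as a covariate, and each library left out in turn. The tests of precursor family rows, the lin-4 row added to the miR-125 members, the background of ratios the levels beside the neuron markers, the comparisons within MC replicate 16 (GC content, let-7 miRNAs) and the likeness without it were chosen after seeing the data. Scripts were tested on data simulated with the spread of these libraries. There edgeR called 0 of 195 miRNAs changed by a log2 of 1 between CS and SS. At a log2 change of 2 it called 132 of 194 (68.0%), with 8 false calls. A count of 0 calls over all miRNAs therefore cannot exclude 2-fold changes. Python 3.11.15, pandas 2.3.3, numpy 2.4.6 and matplotlib 3.10.9 were used for the rest.

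Named miRNAs are the members, the other arms of their hairpins, their let-7 partners with their arms, miRNAs with the same seed, miR-10a-5p, miR-10b-5p, precursor family rows and, per member, the 2 miRNAs of at least 100 CPM with the smallest SD of the log2 ratio. let-7b-5p, let-7d-5p and let-7i-5p were named after their values were seen. Members and lists were chosen with earlier results of these data known. Positions and sequences are from RefSeq (GRCm38.p6), where 1160 miRNA names of the files matched, and genes from GENCODE M21. p-values measure the spread between these libraries. The study's methods call the libraries biological replicates, and whether any animal went into more than 1 pool is not stated.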

Additional observations from a re-analysis of the deposited data

How the results depend on the processing

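Of the 5 members, no call in any comparison changed under any alternative except for miR-99b-5p with DESeq2, called in MS vs SS (log2 fold change -0.57) and among the 4 groups. Over all miRNAs, MS vs SS gave 0 calls, 3 in a fit over its 6 libraries and 19 with DESeq2, and the test among the 4 groups gave 12 with DESeq2. Leaving out each library in turn gave 0 to 7 calls in MS vs SS and 0 to 3 among the 4 groups, the highest without MC replicate 16 in both cases, and 0 in the other comparisons. Per 1000000 miRNA counts in place of all counts, the mean levels were 40261 for miR-99a-5p, 8605 for miR-99b-5p, 8766 for miR-100-5p, 2975 for miR-125a-5p and 4769 for miR-125b-5p, in the same order as in CPM. Signs turned for values that were not called. In CS vs SS they were 0.093 (miR-100-5p) and 0.19 (miR-125b-5p) without TMM factors, and -0.074 (miR-125a-5p) and 0.035 (miR-125b-5p) with library set as a covariate. In MC vs CS miR-99b-5p was -0.023 with TMM factors from all small RNAs and -0.079 without any. In MC vs MS miR-125b-5p was 0.015 over 6 libraries and 0.053 with DESeq2. In the interaction, where the median of all miRNAs moved by -0.33 without TMM factors, miR-99a-5p was -0.18, miR-125a-5p -0.17 and miR-125b-5p -0.34 without them. miR-125b-5p was also -0.026 with factors from all small RNAs, -0.0016 at a minimum of 10 counts and -0.17 with library set, and miR-100-5p was 0.052 with library set. Leaving out libraries gave -0.29 to 0.048 for miR-125b-5p in CS vs SS, -0.37 to 0.025 for miR-99a-5p and -0.069 to 0.087 for miR-99b-5p in MC vs CS, and -0.16 to 0.17 for miR-125b-5p in MC vs MS. In the interaction it gave -0.056 to 0.26 for miR-99a-5p, -0.26 to 0.024 for miR-100-5p, -0.084 to 0.49 for miR-125a-5p and -0.15 to 0.28 for miR-125b-5p. With library set as a covariate the mir-10 family row was 0.19 in CS vs SS and 0.10 in MC vs MS, the lin-4 row 0.39, 0.082 and, in the interaction, -0.30, and the let-7 row -1.05 in MC vs CS. Without MC replicate 16 the mir-10 row was 0.19 in MC vs CS, 0.12 in MC vs MS and 0.48 in the interaction, and the let-7 row -0.094 in MC vs CS. The cause of these turns was not tested. No paired analysis was possible because the replicate numbers differ between all libraries. Depth does not limit the 5p members, whose lowest level was 1005 CPM, but the 3p arms rest on as few as 26 counts.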
